A study of Homo sapiens with 60 samples.

Results

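Integrins and the extracellular matrix proteins they bind were followed in A549 cells, a human lung adenocarcinoma line, through 38 genes. The genes are a list of names whose rule uses no measured value, although the list was drawn up with earlier results of these data known: integrin subunits, laminin chains, collagen chains, basement membrane linkers and proteoglycans, and fibronectin. They are 38 of the 60675 gene identifiers counted, and all 38 were matched by Ensembl identifier and symbol. Cultures received vehicle (DMSO, labelled 0.1% on the samples and 2% in the design text) or a herbal water extract for 24 h, with 3 libraries per group. The extract labels name no DMSO, so a difference in solvent cannot be told apart from the extract in any comparison with vehicle. Single-herb extracts were Citri Unshius Pericarpium (Citri), Cimicifugae Rhizoma (Cimicifugae), Bupleuri Radix (Bupleuri) and Aconiti Lateralis Radix Preparata (Aconiti), and mixtures were Yijung-tang (Yijung), Banhasasim-tang (Banhasasim) and Bojungikgi-tang (Bojungikgi). Aconiti was given at 360 (high), 72 (medium) and 14.4 µg/mL (low) and every other extract at 500, 100 and 20 µg/mL, and Bojungikgi had 1 library per dose. Whether the libraries of a group are separate cultures is not labelled. The p-values therefore rest on the spread of these libraries alone, which may be technical.

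Integrins are heterodimers of an alpha and a beta subunit that span the plasma membrane and tie matrix proteins to the actin cytoskeleton. Laminins are trimers of alpha, beta and gamma chains that polymerise beneath epithelial cells. Type IV collagens form the second network of the basement membrane, and nidogen, perlecan and agrin link or decorate these networks. Lung epithelium rests on such a membrane, whereas fibrillar collagens such as type I lie in the stroma below it.

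The libraries held 17793635 to 30188167 expected counts (median 25758890), and 22161 to 24008 genes had a count. Levels are given as CPM, counts scaled to library size with TMM factors, and changes as log2 fold changes from 1 edgeR quasi-likelihood fit with Benjamini-Hochberg adjustment over 17268 genes and a threshold of 0.05. Of the 38 members, 37 passed the low-count filter. COL13A1 did not, with 19 counts in all over 60 libraries. The epithelial keratins KRT7, KRT8 and KRT18 stood between 2039 and 4720 CPM in every library. Medians of the fibroblast genes COL1A2 and DCN, the endothelial genes PECAM1 and KDR and the leukocyte gene PTPRC were 0 CPM, and CD3E was 0 in all 60. Citri medium replicate 1 stood furthest apart. In it the mean log2 CPM of genes over 6000 bases of exon minus that of genes under 1500 bases, called length balance here, was 3.34, against 4.03 to 4.15 in vehicle, and 31 of the 38 members are over 6000 bases. Cimicifugae low replicate 2 was next at 3.68, with the lowest ITGB1, ITGAV and ITGA6 levels of the 60 libraries. Cimicifugae medium replicate 2 was at 3.82. Results for those doses of Cimicifugae include these libraries. The vehicle libraries carry another sample-number prefix than every extract, so extract against vehicle cannot be told apart from that difference, whereas doses of 1 extract share a prefix. RNA came from whole cultures, so fewer cells making a transcript and less of it per cell cannot be told apart.

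Promoter sequence is shown for the genes whose pairing or direction the results turn on, taken from RefSeq on GRCh38.p14, where 32 of the 38 members had a window. COL4A3 and COL4A4 encode collagen IV chains of one specialised network and are transcribed away from each other. Their starts have 418 bases between them (COL4A3 at position 227164624 and COL4A4 at 227164205 of chromosome 2). The longer stretches between these starts that lie outside every GENCODE 29 exon are chr2:227164237-227164395 and chr2:227164454-227164564, plus strand. COL7A1, the anchoring fibril collagen, is shown over the 250 bases upstream of its start, chr3:48595330-48595579, minus strand. Capitals mark the CCAAT box, the GC box core GGGCGG and the TATA box form TATAAA, each on either strand.
COL4A4 side: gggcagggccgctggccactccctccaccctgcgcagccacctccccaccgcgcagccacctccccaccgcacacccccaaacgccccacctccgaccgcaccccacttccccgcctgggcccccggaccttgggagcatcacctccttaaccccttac
COL4A3 side: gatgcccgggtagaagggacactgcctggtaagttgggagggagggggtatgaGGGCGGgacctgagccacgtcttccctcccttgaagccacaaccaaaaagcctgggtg
COL7A1 upstream: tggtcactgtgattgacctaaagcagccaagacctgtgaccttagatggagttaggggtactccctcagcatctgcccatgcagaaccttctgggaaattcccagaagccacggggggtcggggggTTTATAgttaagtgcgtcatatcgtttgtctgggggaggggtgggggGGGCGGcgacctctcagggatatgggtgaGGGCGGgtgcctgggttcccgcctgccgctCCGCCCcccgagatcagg
The COL4A4 side held none of the motifs, the COL4A3 side held 1 GGGCGG, and the COL7A1 stretch held 3 GGGCGG and 1 TATAAA. Over all 35116 RefSeq windows of 300 bases, 34.6% held CCAAT, 45.0% held GGGCGG and 11.5% held TATAAA on either strand. Of the 32 members with a window, 10, 24 and 6 held them in any of their windows. A gene can have several windows, so these counts of genes cannot be compared with the shares of single windows. A match describes the letters and is not a measured site.

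In vehicle, ITGB1, the beta subunit shared by most matrix-binding integrins, had the highest level per length, 279 ± 2.7 CPM per kb of exon (SD, n = 3). LAMC1, the common laminin gamma chain, followed at 42.4 ± 2.48 CPM per kb. ITGB5, LAMB1, ITGAV, LAMA5, FN1 and ITGA3 came next, between 38.2 and 27.4 CPM per kb. ITGB5 and LAMB1 overlapped over the 3 libraries, as did LAMA5 and FN1, and 16 of the 37 neighbouring pairs in the order overlapped. The lengths are those of the annotated exons, and which transcripts these cells make was not tested. The order below ITGB1 therefore depends on the annotation. FN1 was above LAMC1 before division by length, at 522 against 356 CPM, but has 17315 against 8406 bases of annotated exon. AGRN stood at 21.8 and COL18A1, the source of endostatin, at 15.8 CPM per kb. COL4A2 was at 9.58 and COL4A1 at 6.17 CPM per kb, although their chains assemble in one trimer. These values rest on 19293 and 14738 bases of annotated exon. COL1A1, the type I collagen alpha chain, was at 3.28 CPM per kb. The lowest tested members were ITGB3, LAMA4, ITGA10 and ITGB8, at 0.120 to 0.0671 CPM per kb, and ITGB3 and LAMA4 overlapped. Members together took 0.341% to 0.615% of the counts of a library.

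**Figure D1:**
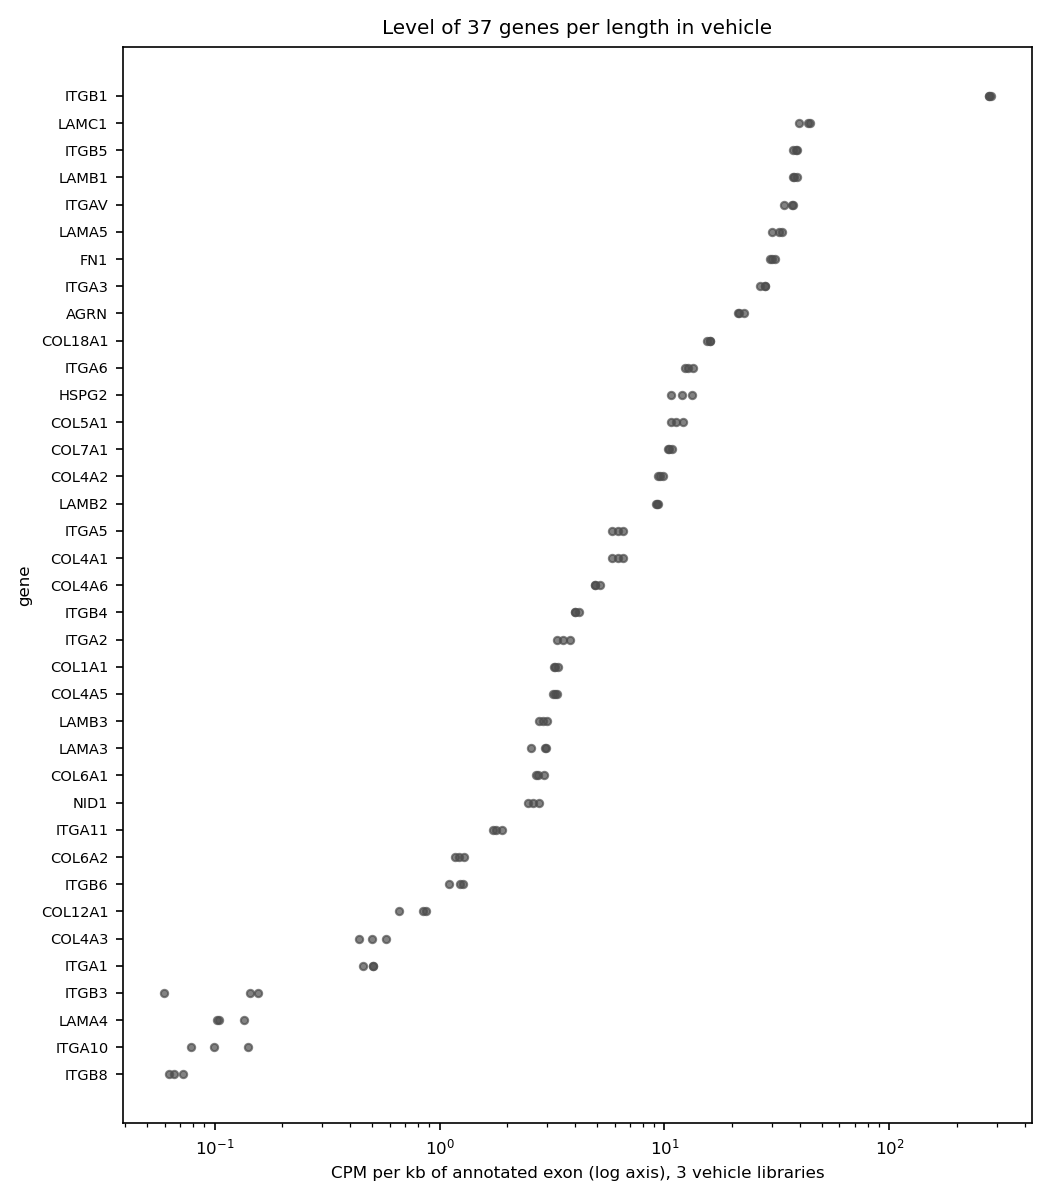
Level of the 37 tested members in the 3 vehicle libraries (points), in CPM per kb of annotated exon on a log axis, ordered by mean. ITGB1 stands alone near 279, and the last 4 genes lie near 0.1.

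With Yijung most members that passed were lower, among them COL1A1, COL4A3, ITGA1, ITGA11 and AGRN, while ITGA3 and ITGB4 were among those higher. Against vehicle 15 of 37 members passed the threshold at the high dose (40.5%), while 7.09% of all genes did. Of these 5 were higher and 10 lower, with 3.76% and 3.33% of all genes. The medium dose gave 17 of 37 (45.9%), with 7.85% of all genes, 2 higher and 15 lower, with 4.01% and 3.83% of all genes. The median change of the members was -0.14 log2 at the high and -0.35 at the medium dose, and that of all genes was 0.00 at both. Groups did not overlap for 23 members at the high dose (24% of all genes) and 26 at the medium dose (26.3% of all genes). Without Vehicle replicate 1 or 2 or Yijung high replicate 2 the high-dose count was 10, and without Yijung medium replicate 1 the medium-dose count was 10. With the length balance of each library as a covariate the counts were 22 (14.8% of all genes) and 24 (18.3% of all genes). The length balance of Yijung high replicate 2 was 3.85, against 4.04 and 4.07 in the other high-dose libraries.

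The low dose gave no member by edgeR or DESeq2 (0.0116% of all genes by edgeR), and 1 had an unadjusted p under 0.05. Against its own low dose, which shares its sample-number prefix, high-dose Yijung changed 10 members (4.93% of all genes), 3 higher and 7 lower (2.64% and 2.29% of all genes). ITGA3 and ITGB4 were higher by 0.61 and 0.85, and COL1A1, COL4A3, ITGA1 and ITGA11 lower by 0.93, 0.94, 0.76 and 0.73 on the log2 scale, with adjusted p from 1.26e-12 to 0.00221. Without Yijung high replicate 2 or Yijung low replicate 3 that count was 6. It was 16, 6 higher and 10 lower, with Citri medium replicate 1 left out of the shared fit (6.42% of all genes), and 21, 6 higher and 15 lower, with the covariate (11.2% of all genes). AGRN, COL4A1, LAMB2 and ITGB5 did not pass without either of these libraries (0.0718 to 0.177), and ITGA11 did not without the first (0.0616). The medium against the low dose, a comparison added after the data were seen, gave 12 members (6.31% of all genes), 1 higher and 11 lower (3.31% and 3.01% of all genes). The covariate gave 27 (17.4% of all genes).

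Some other markers moved with these doses. Of the epithelial markers CDH1 alone is given here. EPCAM, KRT7, KRT8, KRT18 and KRT19 are not reported for Yijung, so CDH1 does not speak for the epithelial list. The epithelial cadherin CDH1 fell from 28.7 ± 1.79 CPM to 14.2 ± 1.11 at the high dose (SD, n = 3, adjusted p = 3.71e-07) and to 14.7 ± 1.56 at the medium dose (adjusted p = 9.21e-07). CD68, a lysosomal protein used as a macrophage marker, rose from 5.37 ± 1.3 CPM to 11.1 ± 1.69 (adjusted p = 0.00306) and 12.4 ± 1.5 (adjusted p = 0.000357). The summed leukocyte markers were 4.3 to 6.86 CPM in vehicle, 10.07 to 13 at the high and 11.35 to 14.12 at the medium dose, with CD3E at 0 throughout. With high-dose Aconiti the epithelial markers that passed against vehicle were KRT7 and KRT19, higher by 0.62 and 0.53 (adjusted p = 0.000363 and 0.00334). The part of these markers in the members' changes was not tested.

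**Figure D2:**
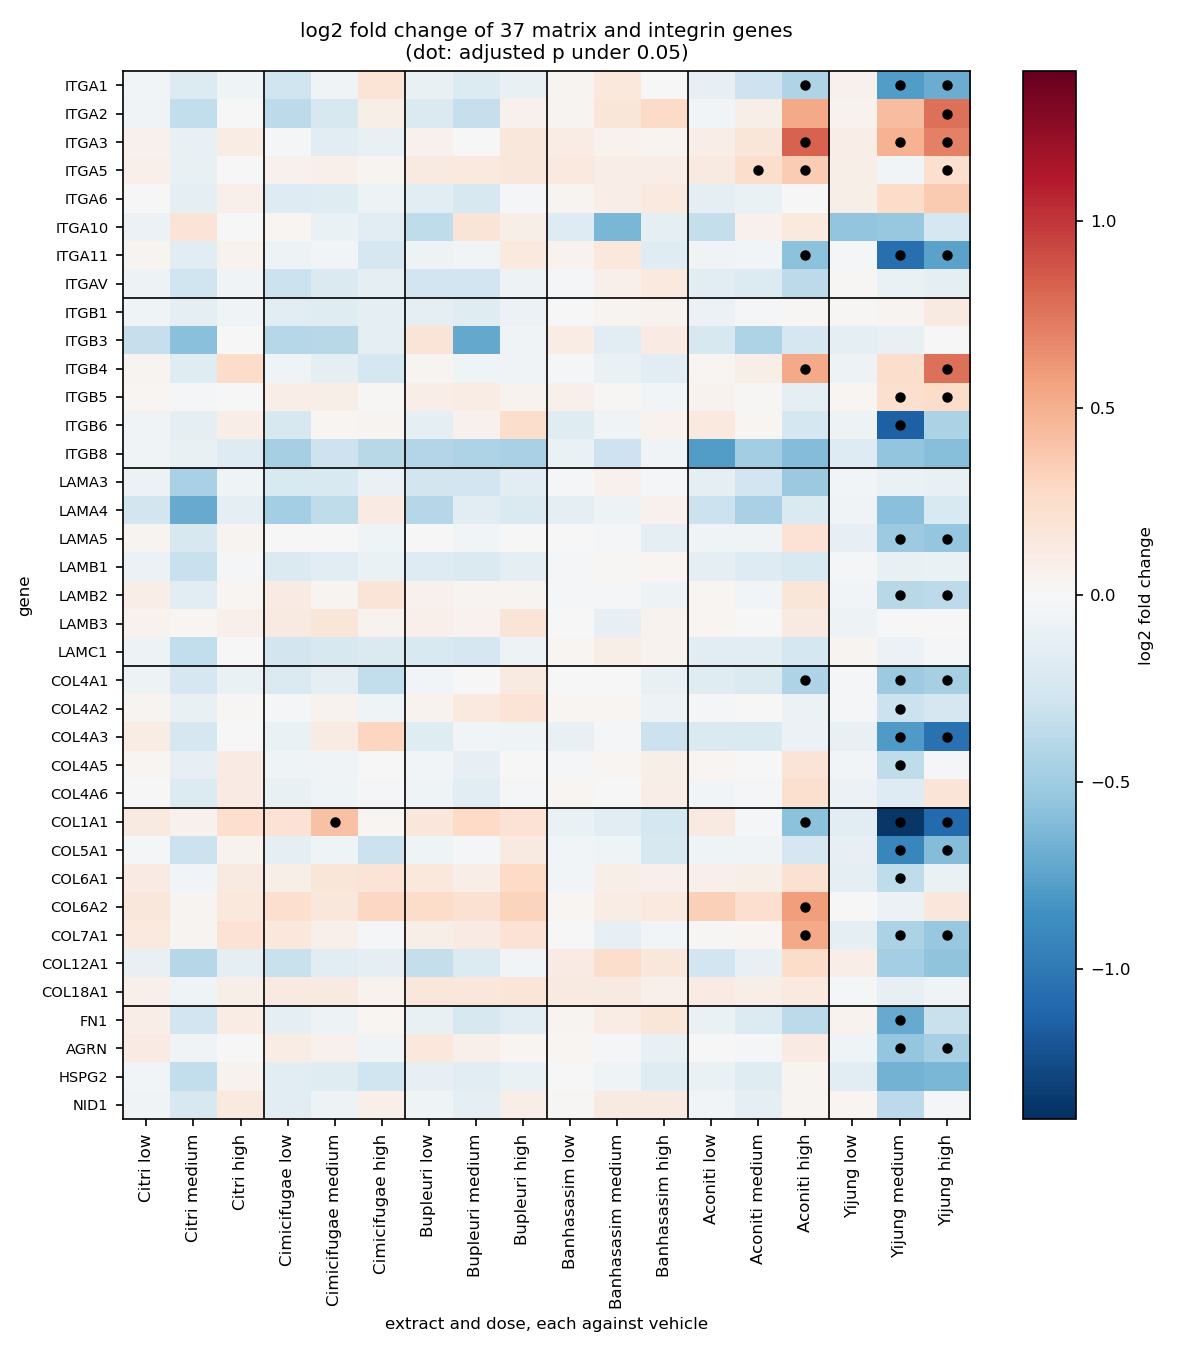
Log2 fold change against vehicle (colour) of 37 members (rows, in blocks of alpha subunits, beta subunits, laminins, collagen IV, other collagens and linkers) at each dose of 6 extracts (columns). Dots mark adjusted p under 0.05 and fall mainly in the Yijung medium, Yijung high and Aconiti high columns, with 17, 15 and 9 of them.

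Of the 8 integrin alpha subunits tested, 5 passed at the high dose of Yijung, with ITGA3, ITGA2 and ITGA5 higher and ITGA1 and ITGA11 lower. The medium dose gave 1 higher and 2 lower. ITGA3 (chr17:50055968-50090481, plus strand), the alpha subunit of a laminin receptor, was 275, 259 and 273 CPM in the vehicle libraries. It was 453, 426 and 437 CPM at the high dose and 362, 364 and 409 CPM at the medium dose. Every library of both doses lay above vehicle, and ITGA3 rose by 0.70 log2 (SE 0.0785, adjusted p = 5.48e-09) and by 0.49 (SE 0.0783, adjusted p = 1.18e-05). ITGA1, the alpha subunit of a collagen receptor, was 8.46, 9.35 and 9.38 CPM in vehicle, 5.35, 4.86 and 6.70 CPM at the high dose and 4.87, 5.52 and 5.49 CPM at the medium dose. ITGA11, of a fibrillar collagen receptor, was 20.5, 19.3 and 18.7 CPM in vehicle, 13.2, 9.28 and 12.7 CPM at the high dose and 7.65, 9.56 and 11.2 CPM at the medium dose. Both lay below vehicle in all 6 libraries, with changes at the high and medium doses of -0.70 and -0.78 for ITGA1 and of -0.75 and -1.06 for ITGA11 (adjusted p = 0.0027, 0.000607, 0.00142 and 7.76e-06). ITGA2, of another collagen receptor, went the other way at the high dose, 51.9, 37.5 and 55.7 CPM against 30.1, 28.1 and 26.3 CPM in vehicle. That rise of 0.78 (SE 0.226, adjusted p = 0.024) did not pass without Vehicle replicate 1, 2 or 3 or Yijung high replicate 1 or 3, with adjusted p from 0.0585 to 0.0953. ITGA5, the fibronectin receptor alpha subunit, was 56.2, 56.1 and 54.2 CPM at the high dose against 49.7, 44.4 and 47.0 CPM in vehicle. Its rise of 0.24 (adjusted p = 0.024) did not pass without Vehicle replicate 2 or 3 or Yijung high replicate 1 or 2 (adjusted p 0.0609 to 0.165). ITGA6, which also pairs in laminin receptors, had a change of 0.37 at the high dose that missed the threshold (adjusted p = 0.0628).

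Of the beta subunits, ITGB4, the hemidesmosome subunit that binds laminin, was 27.0, 26.9 and 28.1 CPM in vehicle and 51.0, 43.9 and 45.4 CPM at the high dose of Yijung. It rose by 0.78 (SE 0.105, adjusted p = 5.95e-07) with no overlap. At the medium dose ITGB4 was 32.2, 31.1 and 34.0 CPM, below every high-dose library, and the high dose exceeded the medium by 0.53 (SE 0.105, adjusted p = 0.00244). With only the 6 samples of that comparison in the fit, this difference had an adjusted p of 0.178. ITGB6, which with the alpha V subunit activates latent TGF-beta, was 5.98, 5.80 and 5.14 CPM in vehicle, 2.43, 2.59 and 2.69 CPM at the medium dose and 3.91, 3.91 and 4.78 CPM at the high dose. The medium dose alone passed against vehicle, with a fall of 1.14 on the log2 scale (SE 0.157, adjusted p = 6.86e-07), and the high dose had a change of -0.44 (adjusted p = 0.0652). ITGB6 was 0.70 higher at the high than at the medium dose (SE 0.162, adjusted p = 0.0132), a difference that did not pass without Yijung medium replicate 1 or 2 or Yijung high replicate 3 (adjusted p 0.0619 to 0.102) or with the 6 samples only (0.426). ITGA5 was the third member to differ between these doses (0.27, adjusted p = 0.0331). It did not pass without any 1 of the 6 libraries (adjusted p 0.0522 to 0.196), and 1.08% of all genes passed in that comparison, also added after the data were seen. ITGB5, a vitronectin receptor subunit, was 306, 299 and 276 CPM at the high dose and 320, 277 and 265 CPM at the medium dose against 247, 240 and 251 CPM in vehicle. Its rises of 0.26 and 0.22 (adjusted p = 0.0125 and 0.0314) did not pass without Vehicle replicate 2 or Yijung high replicate 1 at the high dose (0.0699 and 0.0574), nor without any vehicle library or Yijung medium replicate 1 at the medium dose (0.0575 to 0.294). ITGB1 did not pass at any dose of any extract.

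The laminin and linker genes that passed with Yijung were all lower. AGRN, agrin, a heparan sulfate proteoglycan that binds laminin, was 243, 232 and 229 CPM in vehicle, 178, 145 and 188 CPM at the high dose and 140, 159 and 185 CPM at the medium dose. It fell by 0.47 and 0.54 on the log2 scale (SE 0.102 for both, adjusted p = 0.00164 and 0.000194), and no library overlapped vehicle. LAMB2, a laminin beta chain, was 64.5, 63.8 and 63.2 CPM in vehicle, 52.1, 48.3 and 48.2 CPM at the high dose and 49.9, 45.7 and 50.7 CPM at the medium dose. LAMA5, the alpha chain of the main laminins of adult epithelia, was 475, 463 and 429 CPM in vehicle, 337, 246 and 360 CPM at the high dose and 260, 326 and 373 CPM at the medium dose. Both genes lay below vehicle in all 6 libraries. LAMB2 fell by 0.37 and 0.39 (adjusted p = 0.0171 and 0.0094) and LAMA5 by 0.54 and 0.51 (adjusted p = 0.0309 and 0.0399). LAMB2 did not pass at the high dose without Vehicle replicate 1 or 2 or Yijung high replicate 2 or 3 (0.054 to 0.0806), nor at the medium dose without Yijung medium replicate 2 (0.068). LAMA5 did not pass at the high dose without Vehicle replicate 1 or 2 or Yijung high replicate 2 (0.0936 to 0.302), nor at the medium dose without any vehicle library or Yijung medium replicate 1 or 2 (0.0604 to 0.274). The other 5 laminin chains passed at neither dose. FN1, fibronectin, was 302, 310 and 349 CPM at the medium dose against 535, 509 and 523 CPM in vehicle, a fall of 0.70 (SE 0.18, adjusted p = 0.00727). At the high dose FN1 was 468, 346 and 448 CPM, with a change of -0.31 that missed the threshold (adjusted p = 0.356). HSPG2, perlecan, was 166, 89.9 and 162 CPM at the high dose against 240, 217 and 193 CPM in vehicle, a change of -0.64 that also missed it (adjusted p = 0.084).

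No collagen member passed the threshold as higher with Yijung. COL1A1 (chr17:50183289-50201632, minus strand) was 32.97, 32.04 and 31.77 CPM in vehicle, 29.99, 27.56 and 29.03 CPM at the low, 12.3, 12.3 and 13.0 CPM at the medium and 16.2, 14.2 and 15.3 CPM at the high dose. It was 2.58-fold lower at the medium (SE 0.076 log2, adjusted p = 8.87e-18) and 2.12-fold lower at the high dose (SE 0.075 log2, adjusted p = 8.63e-15), with the lowest adjusted p of the members in both. COL5A1, a type V chain that co-assembles with type I fibrils, was 135, 126 and 120 CPM in vehicle, 89.7, 67.6 and 92.9 CPM at the high dose and 59.4, 63.5 and 79.6 CPM at the medium dose. It fell by 0.61 and 0.91 (adjusted p = 0.00889 and 4.84e-05), and the high-dose call did not pass without Vehicle replicate 1 (0.0547) or Yijung high replicate 2 (0.129). COL7A1 was 116, 120 and 115 CPM in vehicle, 78.8, 67.1 and 96.8 CPM at the high dose and 68.0, 95.7 and 95.2 CPM at the medium dose. All 6 treated libraries lay below vehicle, and COL7A1 fell by 0.54 and 0.44 (adjusted p = 0.00725 and 0.0309). Those calls did not pass without Yijung high replicate 2 (0.13), nor at the medium dose without any vehicle library or Yijung medium replicate 1 (0.0679 to 0.312). COL6A1, a beaded-filament collagen chain, was 11.0, 10.6 and 13.4 CPM at the medium dose against 15.5, 14.3 and 14.7 CPM in vehicle. Its fall of 0.35 (adjusted p = 0.0292) did not pass without any vehicle library or Yijung medium replicate 1 or 2 (0.0511 to 0.168).

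**Figure D3:**
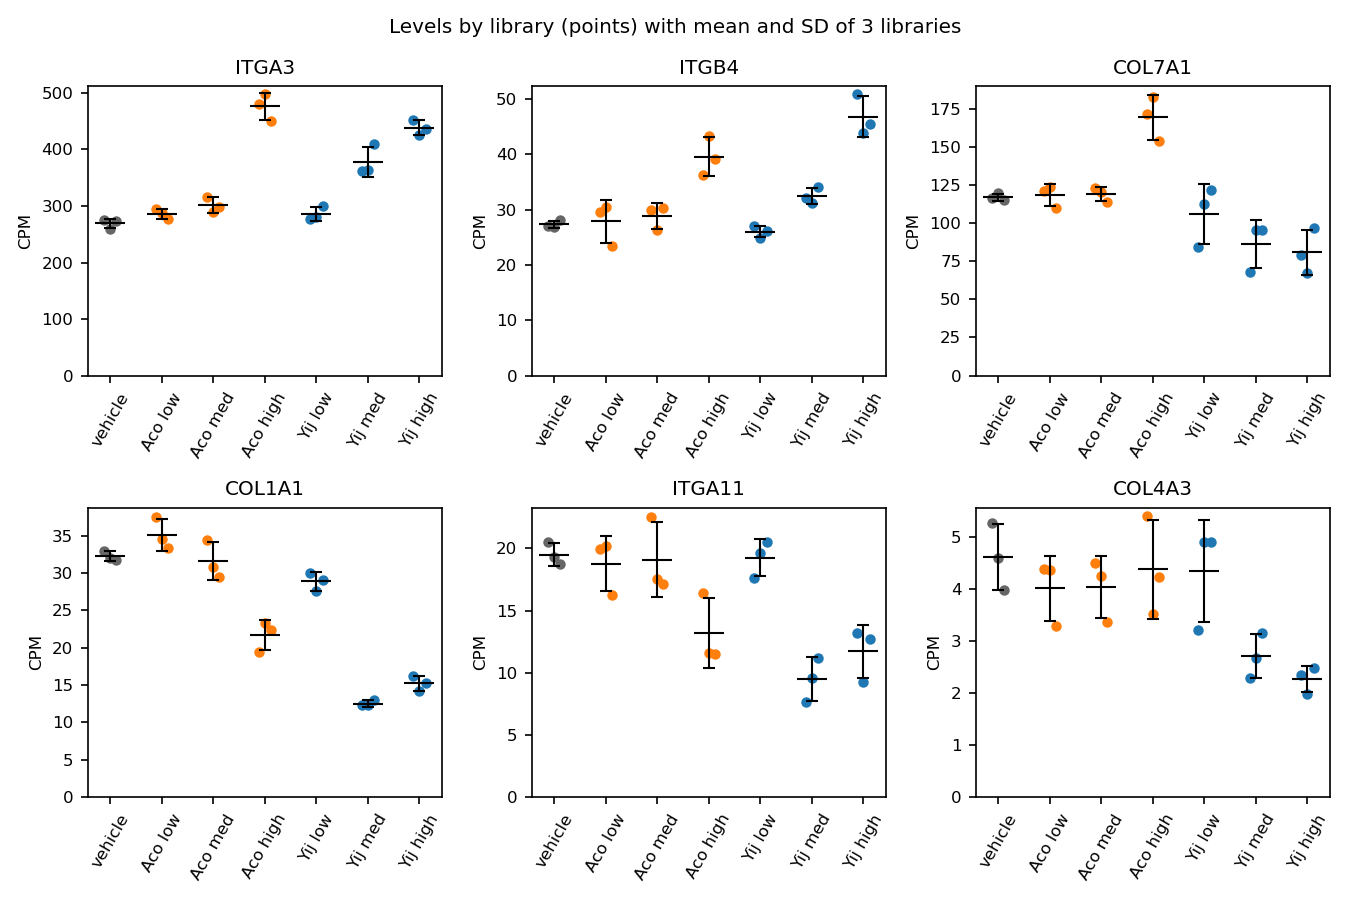
CPM of 6 members by library (points) in vehicle and at each dose of Aconiti and Yijung, with mean and SD of 3 libraries (bars). COL1A1 falls to between 12.3 and 16.2 CPM at the medium and high doses of Yijung, and COL7A1 lies above vehicle at the high dose of Aconiti but below it at the medium and high doses of Yijung.

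Within collagen IV, 4 of the 5 member chains passed at the medium and 2 at the high dose of Yijung, each lower. COL4A3 was 5.26, 4.58 and 3.98 CPM in vehicle, 2.34, 1.99 and 2.47 CPM at the high dose and 2.30, 2.67 and 3.14 CPM at the medium dose. It was 2.06-fold lower at the high dose (SE 0.196 log2, adjusted p = 0.000199) and 1.73-fold lower at the medium dose (adjusted p = 0.00428), the latter not passing without Yijung medium replicate 1 (0.0582). COL4A4, the divergent neighbour in the sequence shown above and not itself a member, was looked at after its values were seen. It was 20.3, 16.8 and 15.3 CPM in vehicle, 9.85, 6.68 and 8.13 CPM at the high dose and 8.59, 9.64 and 10.7 CPM at the medium dose. COL4A4 fell by 1.10 and 0.86 (adjusted p = 6.16e-06 and 0.000235) and passed under every alternative listed in the closing section. At the high dose of Aconiti the pair had changes of -0.09 for COL4A3 and -0.18 for COL4A4, neither past the threshold (adjusted p = 0.756 and 0.424). COL4A5, a chain made from the X chromosome, was 27.1, 32.2 and 31.7 CPM at the medium dose against 37.8, 38.8 and 39.6 CPM in vehicle. That fall of 0.35 (adjusted p = 0.00571) did not pass without Yijung medium replicate 1 (0.0935). COL4A6, which starts on the opposite strand with 379 bases between its start and that of COL4A5, passed in no comparison.

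COL4A1 and COL4A2, the chains of the widespread collagen IV trimer, also start close together on opposite strands of chromosome 13. Between the starts (110307157 and 110307284 in RefSeq) lie 126 bases. COL4A1 was 96.0, 91.1 and 85.8 CPM in vehicle, 71.1, 58.5 and 68.5 CPM at the high dose and 61.7, 60.1 and 70.0 CPM at the medium dose of Yijung, and 77.8, 61.7 and 62.4 CPM at the high dose of Aconiti. It fell in all 3 comparisons, by 0.46, 0.51 and 0.44 (adjusted p = 0.00905, 0.00326 and 0.00418). The first of these did not pass without Vehicle replicate 1 (0.0604) or Yijung high replicate 2 (0.104). COL4A2 was 190, 184 and 181 CPM in vehicle, 169, 141 and 162 CPM at the high and 140, 142 and 168 CPM at the medium dose of Yijung, and 182, 181 and 161 CPM at the high dose of Aconiti. It passed at the medium dose of Yijung alone, with a fall of 0.30 (adjusted p = 0.0242) that was lost without Vehicle replicate 1 or 2 or Yijung medium replicate 1 or 2 (0.0643 to 0.152). COL4A2 over COL4A1 was 1.98 to 2.11 in vehicle, 2.27 to 2.41 at the medium and 2.36 to 2.40 at the high dose of Yijung, and 2.34 to 2.94 at the high dose of Aconiti. These ranges lay above vehicle, as did those of Aconiti low and medium, Citri low and high and all doses but low of Cimicifugae. Ratios were not tested. The 2 genes overlap in GENCODE 29 and the strand setting of the counting is not given, so reads in the overlap cannot be assigned with certainty.

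**Figure D4:**
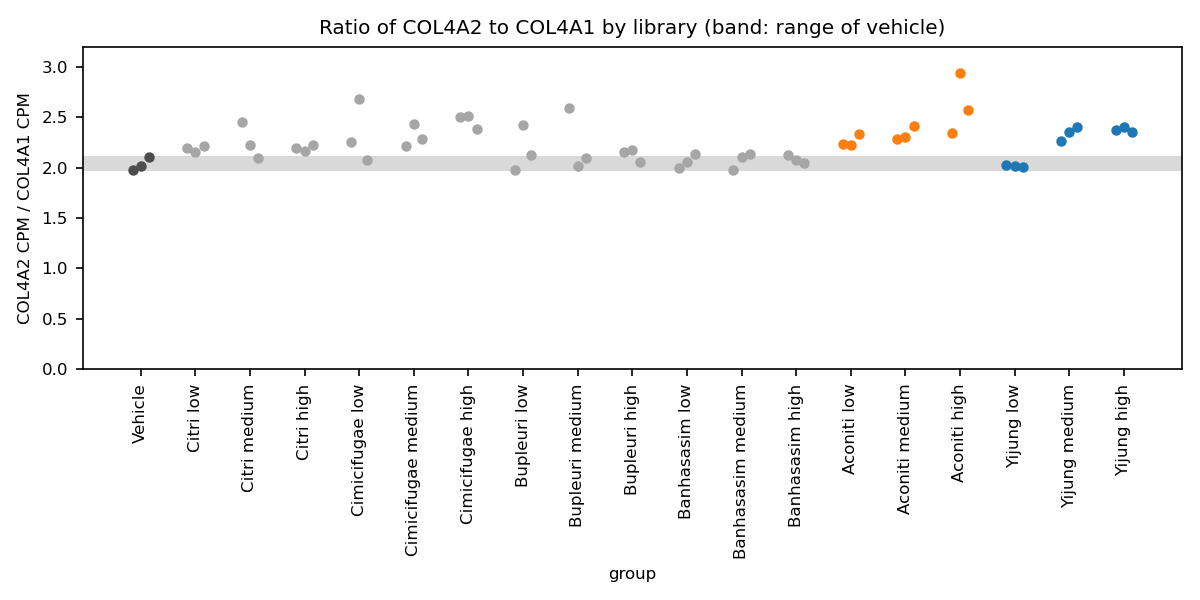
COL4A2 CPM divided by COL4A1 CPM in each library (points), by group, with the range of the 3 vehicle libraries as a band. Libraries of the high dose of Yijung (2.36 to 2.40) and of Aconiti (2.34 to 2.94) lie above the band of 1.98 to 2.11.

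Aconiti raised ITGA3, ITGB4, ITGA5, COL7A1 and COL6A2 and lowered COL1A1, COL4A1, ITGA1 and ITGA11. High-dose Aconiti against vehicle gave 9 of 37 (24.3%), while 32.7% of all genes did. Of these 5 were higher and 4 lower, with 17% and 15.7% of all genes, and 17 members did not overlap vehicle (41.6% of all genes). With the length-balance covariate 22 passed, 18 higher and 4 lower (37.6% of all genes). With Citri medium replicate 1 left out of the shared fit 14 passed, 8 higher and 6 lower (37.7% of all genes). The balance was 3.78 to 4.07 in these libraries and 4.03 to 4.15 in vehicle, and mitochondrial transcripts were 16.5% to 18.95% of counts against 7.91% to 8.54%. The median change was 0.02 log2 for members and -0.01 for all genes. Against the low dose, 8 passed (22.7% of all genes), 4 higher and 4 lower (11.4% and 11.3% of all genes). That split became 13 higher and 6 lower with the covariate (34.8% of all genes), and 4 higher and 2 lower with mitochondrial genes removed before scaling. Without Aconiti low replicate 1 or 2 the count was 5 or 4.

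ITGA3 with high-dose Aconiti was 480, 498 and 451 CPM and rose by 0.82 (SE 0.0786, adjusted p = 2.07e-11) over the vehicle values above. ITGB4 was 36.3, 43.3 and 39.1 CPM and rose by 0.53 (SE 0.106, adjusted p = 9.67e-05). Neither gene overlapped vehicle, and both also rose against the low dose, by 0.73 and 0.50 (adjusted p = 5.99e-10 and 0.000292). ITGA5 was 57.5, 63.4 and 59.2 CPM at the high dose and 57, 55.84 and 54.85 CPM at the medium dose. It rose by 0.35 at the high dose (SE 0.0694, adjusted p = 9.6e-05). At the medium dose it was the single member to pass (0.25, adjusted p = 0.0413, with 2.29% of all genes). That call did not pass without Vehicle replicate 2 or 3 or any Aconiti medium library (0.0688 to 0.264) or without the low-count filter (0.298). ITGA11 was 16.4, 11.6 and 11.5 CPM and fell by 0.57 (adjusted p = 0.00485), which did not pass without Aconiti high replicate 2 or 3 (0.0502 and 0.0546). ITGA1 was 7.90, 5.42 and 7.06 CPM and fell by 0.42 (adjusted p = 0.036). It did not pass without Vehicle replicate 2 or 3 or Aconiti high replicate 2 or 3 (0.0742 to 0.277), with the 6 samples only (0.0615) or with the covariate (0.145). ITGB5 and ITGB6 were lower against the low dose, by 0.19 and 0.39 (adjusted p = 0.043 and 0.0462). ITGB6 kept its call in 3 and ITGB5 in 6 of 14 alternatives. With all libraries ITGB6 had an adjusted p of 0.0564 with RLE scaling, 0.0562 with DESeq2, 0.0515 with the replicate block, 0.0592 with mitochondrial genes removed and 0.0936 without the filter, and the last 2 gave ITGB5 0.0539 and 0.133. ITGB5 did not pass without any 1 of the 6 except Aconiti high replicate 2 (0.0574 to 0.246), and ITGB6 without any 1 except Aconiti high replicate 1 (0.0666 to 0.27).

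No laminin chain, linker or proteoglycan passed with Aconiti. Among the collagens COL7A1 was 172, 183 and 154 CPM, all above the 115 to 120 CPM of vehicle, and rose by 0.53 (SE 0.134, adjusted p = 0.00172). COL6A2, a type VI chain, was 8.50, 12.4 and 8.79 CPM against 6.90, 6.54 and 6.29 CPM in vehicle and rose by 0.59 (SE 0.126, adjusted p = 0.000303). COL1A1 was 19.4, 23.3 and 22.3 CPM, 1.49-fold below vehicle (SE 0.0732 log2, adjusted p = 3.27e-08) and 1.62-fold below the low dose (adjusted p = 3.82e-10). COL1A1 thus fell with Aconiti and Yijung in comparisons that share the vehicle libraries, and also against each extract's own low dose. The fibroblast marker COL3A1 fell by 1.08 with Aconiti, from 1.94 ± 0.133 to 0.919 ± 0.0799 CPM (SD, n = 3, adjusted p = 0.000109). Summed over the 6 fibroblast markers the level was 2.59 to 2.94 CPM in vehicle, 1.62 to 1.81 at high Aconiti, 2.09 to 4.35 at high Yijung and 1.75 to 2.19 at medium Yijung. Of that list COL3A1 alone of 3 tested genes passed at high Aconiti, and its change at high Yijung was -0.20 (adjusted p = 0.656). COL1A2 and DCN had medians of 0, and the part of these markers in the COL1A1 change was not tested.

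The high doses of Aconiti (360 µg/mL) and Yijung (500 µg/mL) were set against each other after the data were seen; they differ in dose and in sample-number prefix, so extract cannot be told apart from these. Of 37 members 12 passed (32.4%), while 28.9% of all genes did, 10 higher and 2 lower with Aconiti (14.9% and 14% of all genes). COL7A1 differed most, by 1.07 (SE 0.135, adjusted p = 3.48e-08); it was above vehicle with Aconiti and below it with Yijung. LAMA5, AGRN and LAMB2 were 562, 587 and 428 CPM, 243, 297 and 222 CPM and 67.4, 82.2 and 65.3 CPM with Aconiti, each above every Yijung library given earlier. Their differences were 0.74, 0.58 and 0.53 (adjusted p = 0.00042, 1.86e-05 and 7.25e-05). COL4A3 was 5.39, 3.51 and 4.22 CPM with Aconiti and higher than with Yijung by 0.96 (adjusted p = 0.000193). COL1A1 was 0.51 higher with Aconiti (adjusted p = 8.75e-07). ITGB5 was 205, 249 and 217 CPM with Aconiti and 0.39 lower (adjusted p = 1.72e-05). ITGA3 was 0.12 higher and ITGB4 0.24 lower with Aconiti, neither past the threshold. COL12A1, a collagen of fibril surfaces, was 16.8, 9.37 and 9.54 CPM with Aconiti and 7.11, 5.38 and 7.86 CPM with Yijung, a difference of 0.82 (adjusted p = 0.0205). It did not pass without Aconiti high replicate 1 (0.193) or Yijung high replicate 2 (0.102). HSPG2 was 262, 238 and 169 CPM with Aconiti, 0.68 above Yijung (adjusted p = 0.0209), and did not pass without Aconiti high replicate 1 or 2 or Yijung high replicate 2 (0.0642 to 0.165). The type VI chains COL6A1 and COL6A2 were 0.31 and 0.43 higher with Aconiti (adjusted p = 0.0198 and 0.00726), and neither passed without Aconiti high replicate 2 or Yijung high replicate 3 (0.0614 to 0.161). ITGA6 was 101, 68.7 and 83.5 CPM with Aconiti and 116, 93.7 and 116 CPM with Yijung. These groups overlapped, and the difference of -0.36 (adjusted p = 0.0252) did not pass without Aconiti high replicate 2 or 3 or Yijung high replicate 1 or 3 (0.0855 to 0.272). Without Aconiti high replicate 2 the count was 8. It was 19 with Citri medium replicate 1 left out of the shared fit (32.8% of all genes) and 24 with the covariate (40.6% of all genes).

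**Figure D5:**
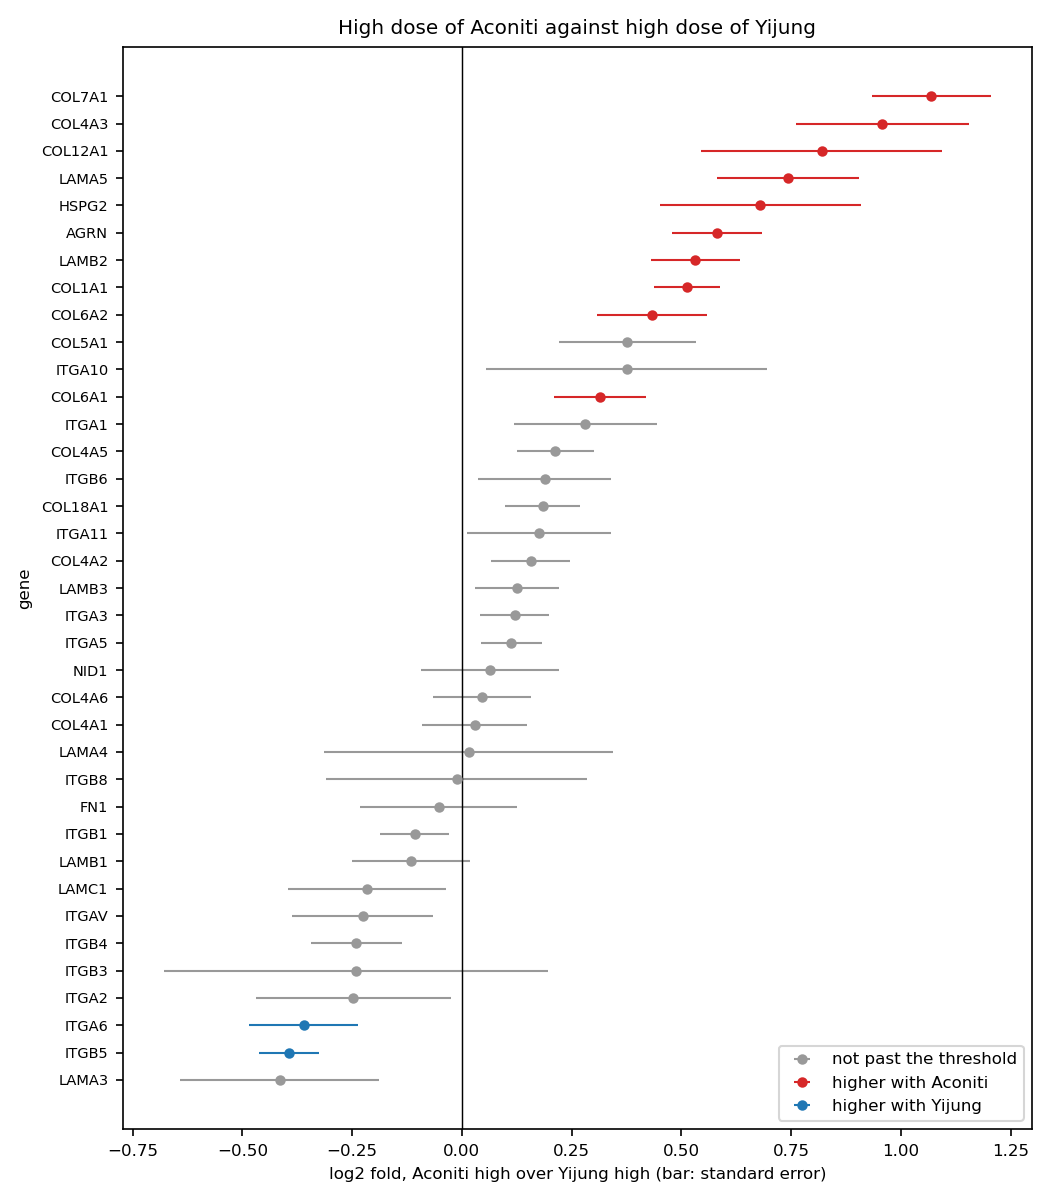
Log2 fold of the high dose of Aconiti over the high dose of Yijung (points) with its standard error (bars) for 37 members, in order. Collagen and proteoglycan genes with COL7A1 at 1.07 stand on the right, and ITGB5 (-0.39) and ITGA6 (-0.36) are the 2 past the threshold on the left.

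In the reported fit the other 4 replicated extracts gave almost no call among the members. With their high doses edgeR called 0 of 37 for Citri (0.0463% of all genes), Cimicifugae (1.96%), Bupleuri (0.712%) and Banhasasim (0.185%), and DESeq2 also called 0. Members with an unadjusted p under 0.05 numbered 2, 3, 5 and 1. With the length-balance covariate 9 members passed for high-dose Bupleuri, all higher (3.28% of all genes called). The covariate gave 3 for high-dose Cimicifugae (7.13%) and 1 for high-dose Banhasasim (0.863%). Apart from ITGB3, ITGA10, ITGB8 and LAMA4, whose counts are low, high-dose changes lay between -0.34 and 0.31 with a median standard error of 0.126 to 0.129. COL1A1 at the medium dose of Cimicifugae was the exception, at 44.0, 42.0 and 42.9 CPM, all above vehicle. It rose by 0.41 (SE 0.0711, adjusted p = 0.00236, with 0.0347% of all genes called), opposite in sign to its change with Aconiti and Yijung. With only those 6 samples in the fit the adjusted p was 0.137. For high-dose Cimicifugae COL1A1 had no call, and the lowest adjusted p was that of COL4A1 (-0.34, SE 0.119, adjusted p = 0.149). With the 6 samples only, 9 members passed there, 2 higher and 7 lower. The share of all genes called in that fit is not given here, so this count cannot be set against it. The medium doses of Citri (0.0174% of all genes), Bupleuri (0%) and Banhasasim (0%) gave 0 calls by edgeR and DESeq2, with 3, 2 and 1 members at an unadjusted p under 0.05. The low doses of Citri (0.00579%), Cimicifugae (0.0116%), Bupleuri (0%), Aconiti (0.0695%) and Banhasasim (0%) gave 0 by both tools, with 0, 2, 2, 2 and 0 at an unadjusted p under 0.05. High against low dose gave 0 by both tools for Citri (0.0232%), Cimicifugae (1.34%), Bupleuri (0.353%) and Banhasasim (0.127%), with 1, 3, 1 and 1 members at an unadjusted p under 0.05.

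Bojungikgi, with 1 library per dose, has no replicate check and was set beside the vehicle range. High-dose levels of 18 of 37 members lay above, 7 below and 12 within that range, with 25.6% of all genes above and 30.7% below. No member was past 1.5-fold of the vehicle mean at the high, medium or low dose, as were 0.539%, 0.649% and 0.707% of all genes (pseudocount 1). FN1 was 629, 624 and 626 CPM at the high, medium and low doses, above the 509 to 535 CPM of vehicle each time. ITGA3, COL12A1, COL18A1 and NID1, nidogen, also lay above vehicle at all 3 doses, and no member lay below it at all 3.

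Other genes of matrix assembly and adhesion were taken from lists. Against vehicle the shares of all genes called were 32.7% with high Aconiti (17% higher and 15.7% lower) and 7.09% with high Yijung. Of 13 tested other basement membrane genes, 5 passed with high Aconiti (38.5%), 4 higher and 1 lower, and 6 with high Yijung (46.2%), 3 in each direction. SMOC1, a calcium-binding matrix protein, rose by 1.16 with Aconiti, from 11.0 ± 0.933 to 24.6 ± 0.392 CPM (SD, n = 3, adjusted p = 1.07e-13), and by 0.34 with Yijung (adjusted p = 0.0186). NTN4, a netrin that binds laminin, rose by 0.67 and 0.43 (adjusted p = 4.11e-13 and 2.65e-07), and SPARC, a collagen-binding glycoprotein, fell by 0.44 and 0.60 (adjusted p = 5.31e-05 and 1.29e-06).

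Of 17 collagen-processing genes 8 passed with high Aconiti (47.1%), all higher, while 17% of all genes were called higher. Of the 8, P4HB, PLOD3 and P3H1 did not pass without Aconiti high replicate 2 (0.079, 0.251 and 0.165). PLOD3 also did not without Vehicle replicate 1, 2 or 3 (0.0501 to 0.0692), P3H1 without Vehicle replicate 1 (0.16) and CRTAP without the low-count filter (0.108). The largest were LOXL4 and LOXL2, lysyl oxidase-like crosslinkers (0.71 and 0.62), P4HA3, a prolyl hydroxylase subunit (0.44), and SERPINH1, the collagen chaperone (0.40; adjusted p = 0.000809, 2.91e-08, 0.000201 and 0.000223). With high Yijung 2 of 17 passed (11.8%), LOXL2 higher by 0.44 (adjusted p = 8.88e-05) and 1 lower. Of 13 tested proteases and inhibitors 7 passed with Aconiti (53.8%), 5 higher and 2 lower, and 5 with Yijung (38.5%), 4 higher and 1 lower. MMP14, a membrane-bound collagenase, rose by 0.90 with Aconiti (adjusted p = 0.000119). PLAUR, the urokinase receptor, rose by 0.68 (adjusted p = 1.66e-05) and PLAU, urokinase, by 0.60 (adjusted p = 4.78e-11). With Yijung, PLAU and PLAUR rose by 0.78 and 0.82 (adjusted p = 1.91e-13 and 2.43e-06).

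Among 19 adhesion complex genes inside the cell, 8 passed with Aconiti (42.1%, with 32.7% of all genes), 2 higher and 6 lower, and 2 with Yijung (10.5%, with 7.09% of all genes), 1 in each direction. VCL, vinculin, which links talin to actin, fell by 0.63 with Aconiti, from 323 ± 21.3 to 209 ± 27.3 CPM (SD, n = 3, adjusted p = 0.000128). TNS4, TNS3 and FERMT2, 2 tensins and a kindlin that bind integrin tails, fell by 0.45, 0.37 and 0.32 (adjusted p = 0.038, 0.0378 and 0.00261). None of those 3 passed without Aconiti high replicate 2 (0.0921, 0.125 and 0.0607). TNS3 and TNS4 also did not pass without Aconiti high replicate 3 or Vehicle replicate 1 or 2 (0.0778 to 0.212). Of 9 tested other matrix receptors 4 passed with Aconiti (44.4%) and 1 with Yijung (11.1%). SDC4, a syndecan, rose by 0.41 with Aconiti (adjusted p = 4.03e-07), and CD47, DAG1 and BCAM, receptors for thrombospondin and laminin, changed by -0.19, -0.28 and 0.21 (adjusted p = 0.00791, 0.0401 and 0.0459). None of the 3 passed without Aconiti high replicate 2 or 3, and DAG1 and BCAM did not without Vehicle replicate 1, 2 or 3 (0.0526 to 0.283). Of 8 tested other integrin subunits 2 passed with Aconiti (25%). ITGA2B, the platelet integrin alpha subunit, was 2.47 ± 0.343 CPM against 1.32 ± 0.112 in vehicle (SD, n = 3, adjusted p = 0.000218). ITGAL, a leukocyte integrin subunit, was 0.174 ± 0.116 against 0.432 ± 0.077 CPM (SD, n = 3, adjusted p = 0.0235), near the detection limit, and was lost without 4 of the 6 libraries, Vehicle replicate 2 or 3 or Aconiti high replicate 1 or 3 (0.0529 to 0.177). At high Yijung edgeR called 0 of these 8, and ITGAL alone had an unadjusted p under 0.05 (0.0178, adjusted p = 0.144).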

How the data were processed

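Messenger RNA of 60 A549 libraries was sequenced from both ends. The tools in the submitters' processing notes are RSEM 1.3.3 and STAR 2.7.3a, besides Trim Galore 0.6.5 and FastQC 0.11.9; their build is GRCh38. The authors deposited expected counts per gene, not normalized; 9.37% of the values were not whole and they were rounded. Of 269 sample columns 60 matched these samples by label and 209 were not used. The annotation release and strand setting are not given in the sources used here. Symbols, lengths and coordinates came from GENCODE 29 (57055 of 60675 identifiers matched).

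One edgeR 4.0.16 quasi-likelihood model (R 4.3.3, TMM, default low-count filter) was fitted to 57 libraries in 19 groups, leaving 38 residual degrees of freedom and a common dispersion of 0.01026; Bojungikgi stayed outside. The method was tested on simulated data. There were 24 comparisons, and 3 more were added after the data were seen. Members and lists were chosen with earlier results of these data known. Named were members past the threshold against vehicle, by library, and per list the 4 largest changes past the threshold in Aconiti high against vehicle, of which some are not reported here. Alternatives were RLE scaling, DESeq2 1.42.0, no filter, 6 samples only, a replicate block, a length-balance covariate, scaling without mitochondrial genes, the fit less Citri medium replicate 1, and leaving out each library. Cells per culture are unknown, and precision is limited by 3 libraries per group.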

Additional observations from a re-analysis of the deposited data

Results flagged for a closer look

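High-dose Aconiti and Yijung differed for 12 of 37 members (32.4%), a share near the 28.9% of all genes called in the same direct edgeR test, Aconiti minus Yijung on the log2 scale: COL7A1 by 1.07, COL4A3 by 0.96, COL12A1 by 0.82, LAMA5 by 0.74, HSPG2 by 0.68, AGRN by 0.58, LAMB2 by 0.53, COL1A1 by 0.51, COL6A2 by 0.43, COL6A1 by 0.31, ITGA6 by -0.36 and ITGB5 by -0.39. Of these, 7 passed under every alternative run. HSPG2, COL12A1, COL6A1, COL6A2 and ITGA6 did not pass with the 6 samples only, at adjusted p of 0.0871, 0.0562, 0.112, 0.124 and 0.142. The groups differ in dose and sample-number prefix, so extract cannot be told apart from these.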

How the results depend on the processing

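No call among the members changed sign under any alternative. Calls kept under every alternative were 7 of 9 for Aconiti high, 7 of 15 for Yijung high and 9 of 17 for Yijung medium against vehicle, 4 of 8 and 4 of 10 for high against low dose of Aconiti and Yijung, 7 of 12 for Aconiti against Yijung, 8 of 12 for Yijung medium against low and 0 of 3 for Yijung high against medium. RLE scaling and scaling without mitochondrial genes moved the median of all genes by at most 0.016.

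With the length-balance covariate the counts were 22 for Aconiti high (9 in the reported fit), 22 for Yijung high (15) and 24 for Yijung medium (17). Of all genes 37.6%, 14.8% and 18.3% were called there. Aconiti medium gave 3 (5.5% of all genes), Aconiti high against low 19 (34.8%) and Yijung high against low 21 (11.2%). Cimicifugae high gave 3 (7.13%), Bupleuri high 9 (3.28%) and Banhasasim high 1 (0.863%). Over the medium doses of Citri, Cimicifugae, Bupleuri and Banhasasim there were 2 (0.00579%, 0.347%, 0.0869% and 0.0347% of all genes). High against low of those 4 gave 5 (0.0869%, 3.83%, 1.42% and 0.486%). Aconiti against Yijung gave 24 (40.6%), Yijung medium against low 27 (17.4%) and Yijung high against medium 14 (3.98%). The fit less Citri medium replicate 1 gave 14 for Aconiti high (37.7% of all genes), 16 for Yijung high against low (6.42%) and 1 for Cimicifugae high (3.1%). It gave 1 over high against low of the 4 (0.0228%, 2.18%, 0.639% and 0.194% of all genes). Aconiti against Yijung had 19 (32.8%) and Yijung high against medium 7 (1.57%). With the 6 samples only there were 4 for Aconiti high against low, 2 for Citri high, 9 for Cimicifugae high, 4 for Bupleuri high, 2 for Banhasasim high, 0 over the medium doses of the 4, 7 for Aconiti against Yijung and 0 for Yijung high against medium. Shares of all genes called in the 6-sample fits are not given here, so these counts cannot be set against them. Without the low-count filter Aconiti medium gave 0. For these the cause was not tested.

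Leaving out each library in turn gave 8 to 12 for Aconiti high, 0 to 1 for Aconiti medium, 4 to 10 for Aconiti high against low, 10 to 14 for Yijung high, 10 to 18 for Yijung medium, 6 to 11 for Yijung high against low, 1 to 4 over the medium doses of the 4, 8 to 14 for Aconiti against Yijung, 9 to 14 for Yijung medium against low and 1 to 4 for Yijung high against medium. Yijung medium gave 10 without its replicate 1, and Yijung high against low gave 6 without Yijung high replicate 2 or low replicate 3. The medium doses of the 4 gave 2 without Citri medium replicate 2 and 4 without replicate 3.

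Replicate numbers did not pair the libraries: same-numbered deviations correlated at -0.195 to 0.338, all pairs exceeded 0.1 in 0 of 27 comparisons, and 32 of 81 pairs correlated best with their own number. With a replicate block 9 members passed for Aconiti high, 15 for Yijung high, 17 for Yijung medium, 7 for Aconiti high against low and 9 for Yijung high against low.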
